A study of Mus musculus with 48 samples.

Results

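Distal H3K27ac regions are the stretches of chromatin marked by acetylated lysine 27 of histone H3 that lie away from the starts of protein-coding genes. They were found in cells sorted from mouse hearts as macrophages and monocytes (MPCs). Read pairs of all libraries were counted at their midpoints in 500 bp windows, and depth-scaled counts (CPM, 1 unit being 1 pair in 1e6 counted pairs) were averaged with equal weight over the 24 groups of the study. The members were chosen by this measured level: a window entered when it reached 4 times the mean over windows with any read, and windows starting within 1000 bp of each other were joined. A region was distal when it was autosomal, under 10 kb long and had no protein-coding gene start within 5 kb. This gave 14777 distal regions of 27161 regions in all, of which 8504 were called intronic because their midpoint lay in the body of a protein-coding gene and 6273 intergenic. The other regions were 11067 promoter-near regions, 730 distal regions of 10 kb or more and 587 regions on the sex chromosomes.

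H3K27ac is written by the acetyltransferases p300 and CBP on nucleosomes that flank active enhancers and promoters. Enhancers lie at a distance from the genes they act on and bring lineage factors together with factors that respond to signals. In macrophages the ETS factor PU.1 opens many of these sites together with C/EBP, AP-1, RUNX and IRF factors, and the set of marked enhancers differs with the tissue in which a macrophage lives and with the signals it receives. The nearest gene is used below to name a region and need not be the gene that the region acts on.

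The cells came from C57BL/6 mice that were operated on at postnatal day 1 (P1) or day 10 (P10), with ligation of a coronary artery (myocardial infarction, MI) or a sham operation. Hearts were taken 3 or 7 days later and each gave 3 hand-cut pieces: the infarct zone (IZ), its border (BZ) and remote muscle (RZ), with the same names in sham hearts. Every library therefore mixes several animals, whose like pieces were combined for the sort of CD45+F4/80+7AAD- cells. CoBATCH, which profiles chromatin in single cells, guides a transposase to the mark with an antibody. Age, surgery, day and zone make 24 groups. The P1 day 3 groups, 6 in number, had 1 library each and the other 18 had 2. The labels give MI as the treatment of every sample, and the sham groups are known from the sample titles. Zones that shared an age, surgery, day and library number were taken as 1 pool of hearts, which gave 14 pools. The reads of all cells of a library were summed, so fewer cells carrying a mark and less mark per cell cannot be told apart.

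The 42 libraries held 48077 to 1008924 counted pairs (median 412016), and regions of all classes took up 31.8% to 63.0% of them. The files name no cell, so barcodes shared between libraries could not be counted, and 0 of 18007584 read names were found in more than 1 library. The labelled cell type was checked at gene starts. All 11 macrophage identity genes had a region within 5 kb of their start, among them Adgre1, which encodes F4/80, and Ptprc, which encodes CD45. No region was found at the starts of the 5 fibroblast genes, 1 of 6 cardiomyocyte genes had one (Tnni3), and 3 of 5 lymphocyte genes (Cd79a, Ms4a1 and Nkg7) and 3 of 5 endothelial genes (Pecam1, Kdr and Egfl7) had one. Distal regions were nearest to 8 of the 11 macrophage genes (25 regions), to 4 of the 5 endothelial genes (15 regions), to 1 fibroblast gene (1 region) and to none of the cardiomyocyte or lymphocyte genes. The paper reports a cluster of nonleukocytes among its sorted cells and left it out of further analysis. As the files name no cell, any such cells could not be removed here.

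The stretches that carry the results below are shown first. For each region they are the 300 bases that hold the most pair midpoints without touching an annotated exon, on the plus strand of GRCm38, and capitals mark matches to any of the 12 motifs described further on. The Wnt7b stretch (chr15:85634621-85634920) is from the highest of the named regions that has no protein-coding transcript start within 5 kb, at most 25% repeat-masked sequence and 300 bases free of exons, and its capitals are 3 GC boxes. This choice was made after the values were seen. The others had the smallest adjusted p of the named regions in each comparison with calls. They are Sgms2 (chr3:131476754-131477053, 1 RUNX match), Padi1 (chr4:140872145-140872444, 1 AP-1 match), Stk35 (chr2:129886017-129886316, no match), Baz2b (chr2:60077109-60077408, 1 PU.1 match) and Slc41a3 (chr6:90757148-90757447, 1 MARE half-site).
Wnt7b: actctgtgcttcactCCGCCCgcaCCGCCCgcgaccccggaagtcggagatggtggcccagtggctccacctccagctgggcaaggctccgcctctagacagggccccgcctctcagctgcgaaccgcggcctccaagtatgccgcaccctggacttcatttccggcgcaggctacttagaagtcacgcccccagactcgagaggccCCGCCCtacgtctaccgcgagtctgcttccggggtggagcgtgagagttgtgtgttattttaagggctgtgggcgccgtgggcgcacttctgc
Sgms2: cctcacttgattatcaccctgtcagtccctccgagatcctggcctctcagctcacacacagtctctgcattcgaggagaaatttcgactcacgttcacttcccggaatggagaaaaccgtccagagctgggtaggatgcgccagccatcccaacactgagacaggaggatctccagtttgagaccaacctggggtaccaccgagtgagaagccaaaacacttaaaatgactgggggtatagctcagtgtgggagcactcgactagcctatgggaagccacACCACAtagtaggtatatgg
Padi1: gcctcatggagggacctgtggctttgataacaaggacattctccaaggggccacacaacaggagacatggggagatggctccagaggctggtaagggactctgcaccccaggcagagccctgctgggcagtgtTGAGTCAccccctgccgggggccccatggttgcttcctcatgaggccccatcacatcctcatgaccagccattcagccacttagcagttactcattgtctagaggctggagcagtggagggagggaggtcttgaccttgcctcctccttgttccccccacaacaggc
Stk35: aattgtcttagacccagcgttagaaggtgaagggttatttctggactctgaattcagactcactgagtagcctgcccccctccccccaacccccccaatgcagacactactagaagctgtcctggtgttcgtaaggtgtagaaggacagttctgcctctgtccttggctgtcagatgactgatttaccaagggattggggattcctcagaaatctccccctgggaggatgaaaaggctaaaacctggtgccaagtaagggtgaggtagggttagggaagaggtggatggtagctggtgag
Baz2b: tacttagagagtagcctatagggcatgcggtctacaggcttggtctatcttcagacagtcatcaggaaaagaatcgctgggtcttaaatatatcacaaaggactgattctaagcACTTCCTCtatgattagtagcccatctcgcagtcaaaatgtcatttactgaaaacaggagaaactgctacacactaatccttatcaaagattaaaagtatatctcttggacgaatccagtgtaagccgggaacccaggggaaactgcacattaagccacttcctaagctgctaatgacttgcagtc
Slc41a3: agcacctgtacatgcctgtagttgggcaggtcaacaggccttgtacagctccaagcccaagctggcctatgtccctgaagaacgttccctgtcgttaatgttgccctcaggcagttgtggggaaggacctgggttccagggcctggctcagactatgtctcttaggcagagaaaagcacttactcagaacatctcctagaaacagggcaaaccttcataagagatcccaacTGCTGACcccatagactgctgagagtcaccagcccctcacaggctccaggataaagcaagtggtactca

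Distal regions were short and poor in CpG. Their median length was 1000 bp, against 2500 bp in promoter-near regions, and 39.7% (5866) were a single window. Together they covered 28.1 Mb. The median GC content was 47.4% in distal and 51.8% in promoter-near regions. The ratio of observed to expected CpG had a median of 0.210 and 0.471, and exceeded 0.6, a value common in CpG islands, in 369 distal regions (2.50%). Intronic and intergenic regions were alike in length (median 1000 bp in both), and their median CpG ratios were 0.214 and 0.204. Repeat-masked bases made up a median of 16.5% of a distal region, and 654 regions were masked over more than 50% of their length. Exons touched 3925 distal regions (26.6%), and the midpoint lay in an exon in 1333, so that the class called intronic includes exonic sequence.

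Distances to genes spanned a wide range. The median distance from the nearer edge of a region to the nearest protein-coding gene start was 28.4 kb, with 26.6 kb for intronic and 30.8 kb for intergenic regions. Distances of single named regions below are taken from the midpoint. Within 50 kb lay 67.7% of the members and within 100 kb 85.1%, and the furthest was 1653 kb away. Members were clustered, and 66.8% had another distal region within 10 kb. The gene start set the class, and other starts remained near some members: 1645 (11.1%) had the start of another protein-coding transcript within 5 kb, and 2620 (17.7%) had the start of a gene that is not protein-coding there.

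**Figure D1:**
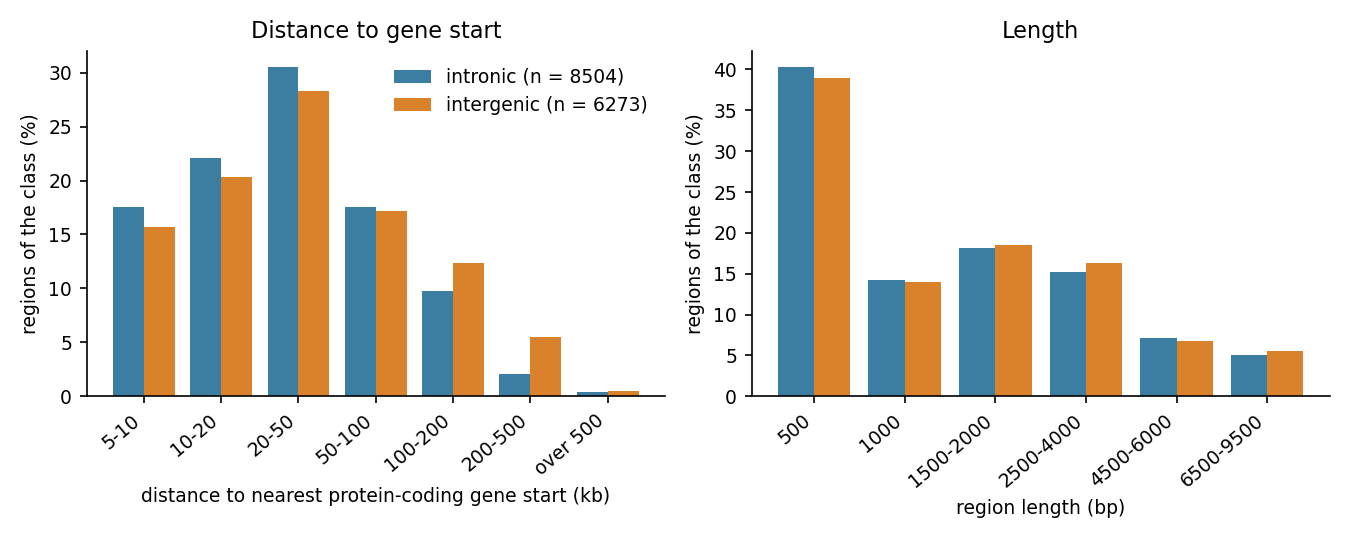
Share of the 8504 intronic and 6273 intergenic distal regions (%) by distance to the nearest protein-coding gene start (left, kb) and by region length (right, bp). The largest distance class in both is 20 to 50 kb (30.5% and 28.3%), and single windows of 500 bp are the largest length class in both (40.3% and 38.9%).

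The level over all groups chose the members and is given as a description. As CPM of all counted pairs per kb, averaged over the 24 groups, the median level was 3.00 in distal and 4.82 in promoter-near regions. At the threshold of 1.14 CPM, the 4 windows just inside lay at 1.14073 to 1.14076 and the 4 just outside at 1.14068 to 1.14069. Pairs were seen in all 24 groups for 4087 distal regions (27.7%). The median member had a mean of 1.38 pairs per library, and 4454 members (30.1%) reached the mean of 3 pairs that the comparisons below required. The other 10323 members were not tested, and a region that passed through 1 arm alone can only be called toward that arm. Leaving out 1 library and calling regions again lost up to 8.57% of the distal regions (1266, without P1 sham day 7 IZ replicate 2), against 2.89% of the other regions.

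Of the 12 members named for the highest level, with 1 per nearest gene and under 50% repeat-masked, 6 hold the start of a further protein-coding transcript of an annotated gene. The region in an intron of Tacc1, which encodes a centrosomal coiled-coil protein, was highest at a level of 23.7 per kb (chr8:25227001-25228500). It ranged from 8.86 in P1 sham day 7 IZ to 51.9 in P1 MI day 3 IZ. The Gpr37l1 region followed at 17.4 and the Esp38 region at 14.6. The latter (chr17:39843001-39849000) overlaps an annotated ribosomal RNA gene and long noncoding RNA genes. Regions at Ppp2r3d (13.1), Mesd (11.3), Nr3c1 (11.2), Sertad2 (10.4), Chd9 (9.83) and Pou2f2 (9.51) are the 6 with such a start, and 7 of the 12 had a CpG ratio over 0.6. The Wnt7b region, 52.3 kb upstream of this Wnt ligand gene, had a level of 12.0, between 3.64 and 23.3 over the groups, and overlaps no GENCODE gene, while RefSeq places the long noncoding RNA D130051D11Rik there. The remaining 2 were those of Gm21060 (12.3) and Zfp958 (10.2).

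The members were spread unevenly over genes. The 14777 regions were nearest to 5339 genes, 46.0% of which had a single region, while 206 genes with 10 or more held 2799 regions (18.9%). Id2, an inhibitor of basic helix-loop-helix factors, had most with 37 regions reaching 303 kb from its start, only 1 of them intronic. Runx1, a haematopoietic transcription factor, had 32 and Maf, a leucine zipper factor of mature macrophages, had 28. Jarid2 of the Polycomb complex PRC2 had 27, and the repressors Foxp1 and Etv6 had 26 and 24, of which 26 and 22 were of the intronic class. Thbs1 (thrombospondin 1), Gm826 and the calcium pump gene Atp2b1 had 23 each and Dusp6, a phosphatase of ERK, had 22. A gene with a large territory has more room for regions, and these counts were not divided by it.

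Motif matches set distal regions apart from promoters. The motifs were searched on both strands in the 500 bp window of highest level in each region and in all 4791480 autosomal windows of that length. They were GAGGAAGT for PU.1, TGANTCA for AP-1, TTGCNNAA for C/EBP, GAAANNGAA for IRF factors, TGTGGT for RUNX, TGCTGAC for the MARE half-site of MAF factors, CACGTG for the E-box, AAAGGTCA for NR4A receptors, AGATAAG for the GATA family and GGGCGG for the GC box, with kappa B and MEF2 searched in their usual ambiguous forms. AP-1 and MARE half-site matches can share bases. A PU.1 match was present in 10.5% of distal windows, 5.46% of promoter-near windows and 3.03% of all windows. AP-1 was present in 19.3%, 9.61% and 14.4%, and RUNX in 36.6%, 23.4% and 31.4%. The order between the classes was the opposite for 3 motifs. The GC box was present in 13.7% of distal and 59.9% of promoter-near windows against 4.70% of all windows, the E-box in 9.12%, 12.4% and 4.94%, and kappa B in 11.2%, 17.0% and 6.14%. MARE half-sites were present in 10.7% of distal, 7.19% of promoter-near and 6.79% of all windows. C/EBP (19.6% against 21.8%), IRF (16.0% against 18.5%), GATA (5.77% against 7.27%) and MEF2 (5.47% against 11.2%) were less frequent in distal than in all windows, and NR4A was at 2.90% against 2.82%. The windows differ in base composition, and no correction was made for it. The PU.1 share was 8.59% in the 7534 members whose highest window was at 4 to 6 times the mean, 12.2% in the 4351 at 6 to 10 times and 13.0% in the 2892 above 10 times, while the GC box went from 10.1% through 13.1% to 23.9%.

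**Figure D2:**
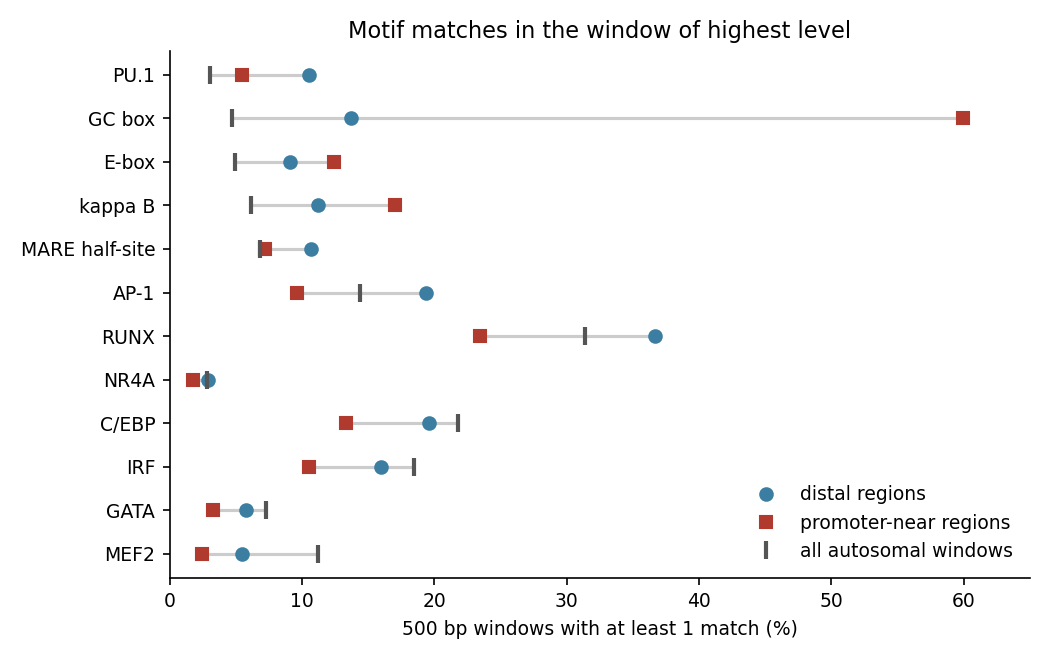
Share of 500 bp windows (%) with at least 1 match to each of 12 motifs, for the highest window of the 14777 distal regions (circles), of the 11067 promoter-near regions (squares) and for all autosomal windows (ticks). PU.1 matches are most frequent in distal windows (10.5%), and GC boxes in promoter-near windows (59.9%).

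How much of the acetylation in regions lay in distal regions was compared between ages and surgeries over pools. The share ranged from 21.3% to 25.5% of the pairs in autosomal regions over the 42 libraries, with a median of 23.6%. It was 23.6% ± 1.07 (SD, n = 7 pools) in MI and 23.3% ± 1.11 (SD, n = 7) in sham, a log2 difference of 0.024 in the ratio of distal to other pairs (exact two-sided permutation test, p = 0.601, adjusted over 4 tests 0.801). In P10 pools it was 23.3% ± 1.06 (SD, n = 8) and in P1 pools 23.7% ± 1.12 (SD, n = 6), a log2 difference of -0.029 (exact permutation p = 0.545, adjusted 0.801). The arms overlapped in both comparisons. These tests do not take the library number into account, with which the distal share also went at day 7. It was 22.1% ± 0.446 (SD, n = 4 pools) in libraries numbered 1 and 24.2% ± 0.768 (SD, n = 4) in those numbered 2, without overlap, and the median fragment was 230 bp and 282 bp long on average. Within the day 7 pools numbered 1 the share was 21.6% and 21.9% at P10 and 22.1% and 22.7% at P1, and within those numbered 2 it was 23.3% and 23.8% at P10 against 24.9% in both P1 pools. It was thus lower at P10 without overlap within each number. An exact permutation of 2 pools against 2 has 6 splits and could not pass the threshold, and no test that keeps the number was run. What the number stands for is not given in the labels. The paper names 2 biological replicates with a batch correction for them, and does not tie them to these numbers. The 18 libraries numbered 2 are those whose files held repeated lines and names with a single mate. The part of this in the share was not tested.

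The split of distal pairs between introns and intergenic sequence was compared in the same way, again without regard to library number. Of the P1 pools 4 of 6 were numbered 1 and of the P10 pools 2 of 8. Intronic regions held 57.0% ± 0.503 (SD, n = 8) of the distal pairs in P10 pools, from 56.1% to 57.6%, and 55.5% ± 0.905 (SD, n = 6) in P1 pools, from 54.2% to 56.6%. The log2 difference in the ratio of intronic to intergenic pairs was 0.087 (exact permutation p = 0.000666, adjusted 0.00266), and the ranges of the pools overlapped. The adjusted p stayed between 0.00233 and 0.0140 when any 1 pool was left out. Within the day 7 libraries numbered 1 the share was 57.2% at P10 and 54.4% at P1, and within those numbered 2 it was 56.9% and 56.3% with overlapping pools, a log2 difference of 0.032. The P1 day 7 pools stood at 54.2% and 54.6% when numbered 1 and at 56.1% and 56.6% when numbered 2, a gap as wide as that between the ages. No test was run within a number here either. Within the day 7 pools numbered 1 the ages differed in fragment length. The median fragment averaged 200 and 199 bp in the P10 pools and 255 and 265 bp in the P1 pools. Between MI and sham the intronic share was 56.3% ± 0.991 and 56.3% ± 1.12 (SD, n = 7 each, exact permutation p = 0.932).

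**Figure D3:**
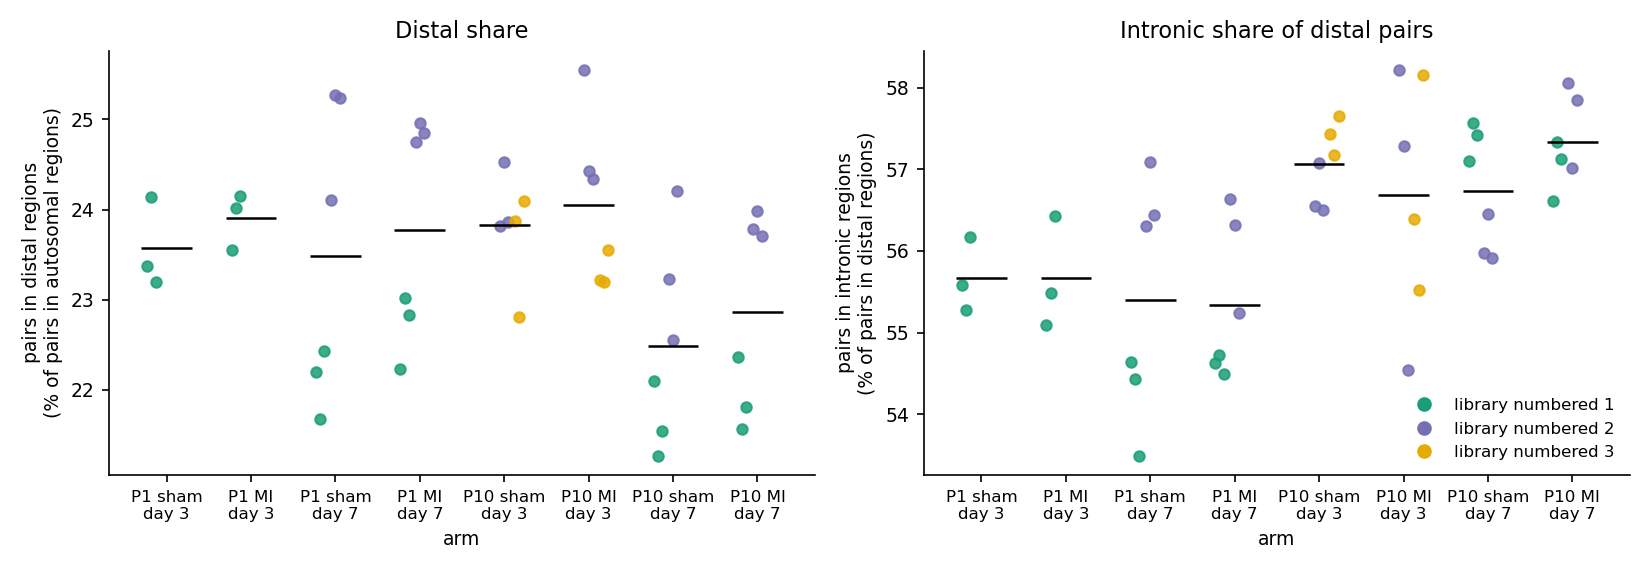
Each point is 1 of 42 libraries, coloured by its number, and bars are means of an arm. The left panel gives pairs in distal regions as a percentage of pairs in autosomal regions, with day 7 libraries numbered 2 above those numbered 1 in each arm, and the right panel gives pairs in intronic regions as a percentage of distal pairs, where P10 libraries lie between 54.5% and 58.2% and P1 libraries between 53.5% and 57.1%.

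Differences of single regions between groups were tested with limma (voom) on the 12490 regions of all classes that averaged 3 or more pairs, and adjusted p is Benjamini-Hochberg over these regions. Of them 4454 were distal. Scaled levels below are CPM of a library's pairs in tested regions, with TMM factors applied. In MI against sham at P10 day 3, 10 distal regions were called and all were higher in MI, 0.225% of those tested, beside 0.280% of all regions in either direction (0.272% higher and 0.00801% lower). At an unadjusted p under 0.05 there were 528, beside 10.2% of all regions.

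The region in Sgms2, a sphingomyelin synthase gene, had the smallest adjusted p of the regions named here. The scaled level at P10 day 3 was lowest at 78.7, with a median of 129 and a highest value of 167, in the 6 MI libraries, and 5.86, 42.1 and 120 in the 6 sham libraries. The arms overlapped in the upper sham values, and the log2 difference was 1.80 ± 0.361 (SE, limma adjusted p = 0.00628). The region upstream of Susd1 stood at 15.7, 71.4 and 92.1 in MI and at 9.23, 17.2 and 33.9 in sham (log2 difference 1.86, adjusted p = 0.0227 by limma). In Aff1, which encodes a scaffold of the super elongation complex, the arms did not overlap, with 18.6, 43.6 and 86.7 in MI against 2.66, 9.64 and 18.4 in sham (log2 difference 2.12, limma adjusted p = 0.0350). The Akap7 region, named for a gene of a protein kinase A anchor, had 0 pairs in 3 of 6 sham libraries, and its log2 difference of 2.40 rests on 39 pairs in MI and 14 in sham. An intronic region of Mmp14, a membrane-type matrix metalloproteinase, had 15.7, 37.9 and 70.5 in MI and 0, 7.68 and 21.3 in sham (log2 difference 2.05, limma adjusted p = 0.0450).

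The 10 calls depended on the setting and on single libraries. The count was 0 with libraries scaled to all counted pairs and 0 with limma-trend, with 312 and 324 regions at an unadjusted p under 0.05. It was also 0 without P10 MI day 3 RZ replicate 2, without P10 sham day 3 IZ replicate 3 or without P10 sham day 3 RZ replicate 2. It was 2 without P10 MI day 3 IZ replicate 3 or BZ replicate 2, 4 without P10 sham day 3 BZ replicate 3, 6 without replicate 2 of the sham IZ or BZ, 19 without P10 MI day 3 BZ replicate 3 (15 higher and 4 lower) and 69 without P10 MI day 3 IZ replicate 2 (50 higher and 19 lower). With the replicate number as a block it was 47 (36 higher and 11 lower), so that the single direction did not hold in every setting. In 4 of the 10 the sham arm had a mean under 3 pairs. The summed level of the 15 distal regions nearest to endothelial genes was 63.2, 98.8 and 138 CPM of all counted pairs (lowest, median, highest) in MI and 67.4, 79.1 and 87.8 in sham, and its part in the result was not tested.

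No distal region was called in the other comparisons of MI with sham by limma. At P10 day 7 there were 0, with 175 at an unadjusted p under 0.05, or 3.93% of those tested beside 2.93% of all regions. At P1 day 7 there were 0, with 221 (4.96% beside 4.68%). At P1 day 3, where each group had a single library, there were 0, with 70 (1.57% beside 1.24%). The response to MI was also compared between the ages in the same fit. The difference of the responses, P10 less P1, gave 0 distal regions at day 3. There 166 had an unadjusted p under 0.05, or 3.73% of those tested beside 3.43% of all regions. At day 7 it gave 0, with 181 (4.06% beside 3.59%). The calls at P10 day 3 are therefore not shown to differ from the P1 response, which at day 3 rests on 1 pool per arm. In these 5 comparisons 0% of all regions were called.

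**Figure D4:**
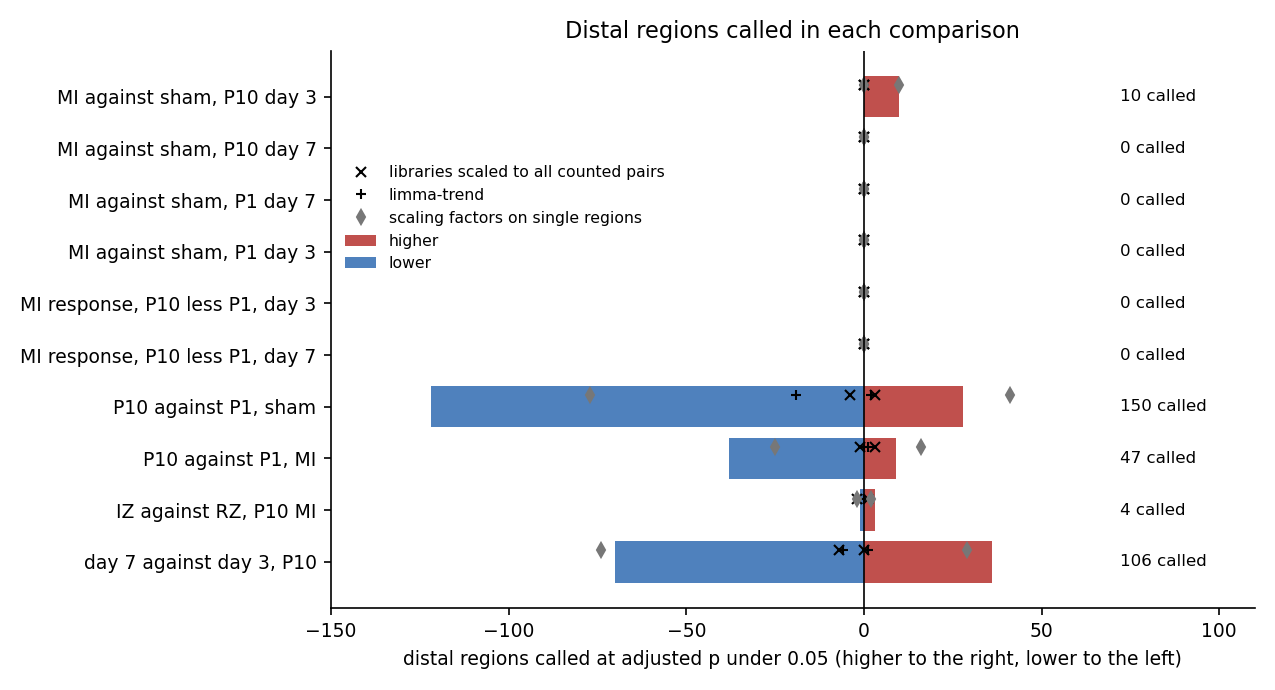
Number of distal regions called at an adjusted p under 0.05 in each of 10 comparisons, with higher to the right and lower to the left (bars), and the same counts under 3 other settings (symbols). The comparison of ages in sham has most calls (150), and the count is 7 when libraries are scaled to all counted pairs and 21 with limma-trend.

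Among distal regions the comparison of ages in sham gave the most calls in the main setting. Scaled to all counted pairs, it tied with day 7 against day 3. Over all regions day 7 against day 3 gave 363 and this comparison 317. In sham libraries 150 distal regions differed between P10 and P1, 28 higher and 122 lower at P10, which is 3.37% of those tested beside 2.54% of all regions (0.520% higher and 2.02% lower) and 1.55% of promoter-near regions. At an unadjusted p under 0.05 there were 869, beside 15.1% of all regions. The intergenic members had 75 calls of 1940 tested and the intronic 75 of 2514. The split depended on the scaling: with factors from single regions 41 were higher and 77 lower, and with libraries scaled to all counted pairs 3 were higher and 4 lower. Under that last scaling the median log2 difference over all regions was 0.11, in place of -0.06.

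The Padi1 region lay 24.5 kb upstream of this peptidylarginine deiminase gene and over a long noncoding RNA gene, 4930515B02Rik. In the 12 P10 sham libraries it had 5.86, 19.4 and 63.5, and in the 9 P1 sham libraries 70.8, 104 and 212. No P10 library reached the lowest P1 library, and the log2 difference was -2.01 ± 0.305 (SE, limma adjusted p = 8.29e-06). The intergenic region of Slc44a3, a choline transporter-like gene, was likewise without overlap, at 0, 5.73 and 13.9 against 14.2, 24.8 and 70.7 (log2 difference -2.13, limma adjusted p = 0.000976). Lower at P10 with overlap were the regions of Fignl1, an ATPase gene of DNA repair (-1.90), and of Tnip1, which encodes a partner of A20 that restrains NF-kappa B (-1.85). The Tnip1 region is intronic and stood at 2.93, 19.7 and 67.5 against 0, 66.1 and 122.

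Fewer regions were higher at P10 in sham. An intronic region of Usp49, a deubiquitinase gene, had 10.6, 26.4 and 61.3 in P10 libraries and no pair in 6 of 9 P1 libraries, whose highest value was 14.2 (log2 difference 2.05, limma adjusted p = 0.00574). It rests on 68 and 5 pairs. The region 152 kb from Zbtb10 (1.53), that in Myo5a, which encodes an actin-based motor (1.16), and that in Itsn1, a scaffold gene of endocytosis (1.53), were also higher, each with overlapping arms. The Myo5a region was the deepest of them, at 59.3, 116 and 221 in P10 and 0, 56.6 and 109 in P1. None of these 8 calls was lost in the 39 fits that each left out 1 library. With limma-trend those of Usp49, Zbtb10 and Itsn1 were lost, with all counted pairs those of Myo5a and Itsn1, and when P10 libraries not numbered 2 were left out Padi1 alone was past the threshold of the 7 that could be fitted.

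In MI libraries 47 distal regions differed between the ages, 9 higher and 38 lower at P10, or 1.06% of those tested beside 0.945% of all regions (0.200% higher and 0.745% lower). At an unadjusted p under 0.05 there were 693, beside 13.2% of all regions. With factors from single regions 16 were higher and 25 lower, and with all counted pairs 3 were higher and 1 lower. The Stk35 region, 86.2 kb from this kinase gene, had 0, 8.01 and 40.3 in 12 P10 libraries and 16.1, 50.5 and 86.9 in 9 P1 libraries (log2 difference -2.26 ± 0.443, SE, limma adjusted p = 0.00266). It was at 0 in 5 P10 libraries. The region of Dusp5, a nuclear phosphatase of ERK, lay 50.1 kb upstream and had 0, 34.6 and 155 against 56.8, 101 and 205 (-1.45), and the regions in Tmem51 (-1.66) and in Tnxb, which encodes tenascin X (-1.94), were lower too. Higher at P10 were regions named for the DNA repair genes Fancc (1.87) and Rnf169 (1.85), for Itsn1 (2.08) and for Tbc1d9b, a Rab regulator (1.31). The arms overlapped in all 8. Leaving out 1 library ended the call of Itsn1 in 2 fits and of Tbc1d9b in 3 of 39. With limma-trend the call of Fancc alone was kept, with all counted pairs those of Tbc1d9b, Tmem51, Dusp5 and Tnxb were lost, and when P10 libraries not numbered 2 were left out those of Fancc and Stk35 alone were past the threshold.

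The calls at both surgeries shared 15 regions, 10.0% of those in sham and 31.9% of those in MI, and the 15 had the same direction. The P10 and P1 libraries compared in sham are other libraries than those compared in MI, although all entered the same fit. Age and sequencing run were linked in both. The P10 day 3 libraries and the P10 day 7 libraries numbered 2 had no flow cell in common with P1 libraries. Nor had the P1 day 7 libraries numbered 2 with P10 libraries, and the part of the run was not tested. In 35 of the 150 and 11 of the 47 the lower arm had a mean under 3 pairs. Depth differed between the ages as well. Counted pairs at day 7 ran from 48077 to 470287 in P1 sham libraries and from 281821 to 520638 at P10. In MI they ran from 73087 to 634784 at P1 and from 245173 to 1008924 at P10. At day 3 the shallowest library held 370105 pairs at P1 and 137589 at P10. Without the 6 libraries under 150000 pairs the 16 named age differences stayed past the threshold. The part of depth in the split of directions was not tested. P1 day 3 libraries held fragments with a median of 187 to 198 bp, P1 day 7 libraries 240 to 292 bp and P10 libraries 196 to 302 bp, and the part of fragment length in these calls was not tested. The day 7 libraries numbered 1 of both ages shared a flow cell, except the P1 MI BZ and RZ libraries, which shared none with P10. Within that number the ages also differed in fragment length, as given above. The P1 day 3 libraries had the same flow cells as the P10 day 7 libraries numbered 1, but at another day after surgery. Among day 7 libraries numbered 1, 33 regions (2 higher and 31 lower) were called in sham, where a flow cell was shared between ages. In MI it was shared by the P1 IZ library alone, and 41 regions (7 higher and 34 lower) were called. Of the 16 named age differences 6 were past the threshold in these libraries. The 10 that were not are those of Usp49, Zbtb10, Myo5a, Itsn1 and Tnip1 in sham and of Fancc, Rnf169, Itsn1, Tbc1d9b and Stk35 in MI. All 10 had the same sign as in all libraries, with Fancc at 0.48, Usp49 at 1.33 and Stk35 at -1.31 and the other 7 between -2.24 and 2.60. The count in sham was 80 without P10 sham day 3 RZ replicate 2, 85 without P10 sham day 7 IZ replicate 1, 94 without P10 sham day 3 IZ replicate 3 and 99 without P10 sham day 7 RZ replicate 1. In MI it was 16 without P10 MI day 3 BZ replicate 3, 27 without P10 MI day 3 RZ replicate 2 and 89 without P10 MI day 3 IZ replicate 3.

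Time after surgery was compared at P10. Between day 7 and day 3, 106 distal regions were called, 36 higher and 70 lower at day 7, or 2.38% of those tested beside 2.91% of all regions (1.82% higher and 1.09% lower). At an unadjusted p under 0.05 there were 824, beside 16.7% of all regions. Promoter-near regions had the opposite split, with 159 higher and 45 lower. The distal share of the P10 pools was 23.3% to 24.8% at day 3. At day 7 it was 21.6% and 21.9% in pools numbered 1 and 23.3% and 23.8% in those numbered 2. Their median fragments averaged 252 to 290 bp at day 3, 199 and 200 bp in number 1 and 273 and 295 bp in number 2. The part of these in the split was not tested. With all counted pairs 7 distal regions were called, all lower, and with the replicate number as a block the number of calls rose, as given at the end. The Slc41a3 region had the smallest adjusted p of the regions named here. It lies in an intron of Iqsec1, 151 kb from the start of Slc41a3, a magnesium transporter gene, and had 0, 13.6 and 86.4 in the 12 day 7 libraries and 18.2, 72.5 and 198 in the 12 day 3 libraries (log2 difference -1.77 ± 0.325, SE, limma adjusted p = 0.000251).

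The other 3 named regions that were lower at day 7 follow. The region in Actn1, which encodes the actin crosslinker alpha-actinin 1, had 0, 31.2 and 69.1 at day 7 and 42.9, 82.3 and 155 at day 3 (-1.53). The region of Cdc42ep4, an effector gene of the GTPase CDC42, had 0, 35.6 and 63.7 against 29.3, 95.0 and 143 (-1.43), and that named for Arhgdib, which lies in the gene body of Pde6h, had 9.34, 29.4 and 48.0 against 42.7, 64.2 and 136 (-1.39). Higher at day 7 were regions in Sec14l1 (1.14), 46.5 kb upstream of the MYC antagonist gene Mxd4 (1.09), in the corepressor gene Cbfa2t3 (0.97) and in Arhgef3 (1.25). The Sec14l1 region had 86.2, 125 and 151 against 6.20, 63.1 and 141, and the arms overlapped in all 8 regions. With all counted pairs the 4 higher ones were not past the threshold and the 4 lower ones were, and with limma-trend Mxd4, Cbfa2t3 and Arhgef3 were not. Leaving out 1 library ended the call of Cbfa2t3 in 2 fits and of Arhgef3 in 3 of 42.

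**Figure D5:**
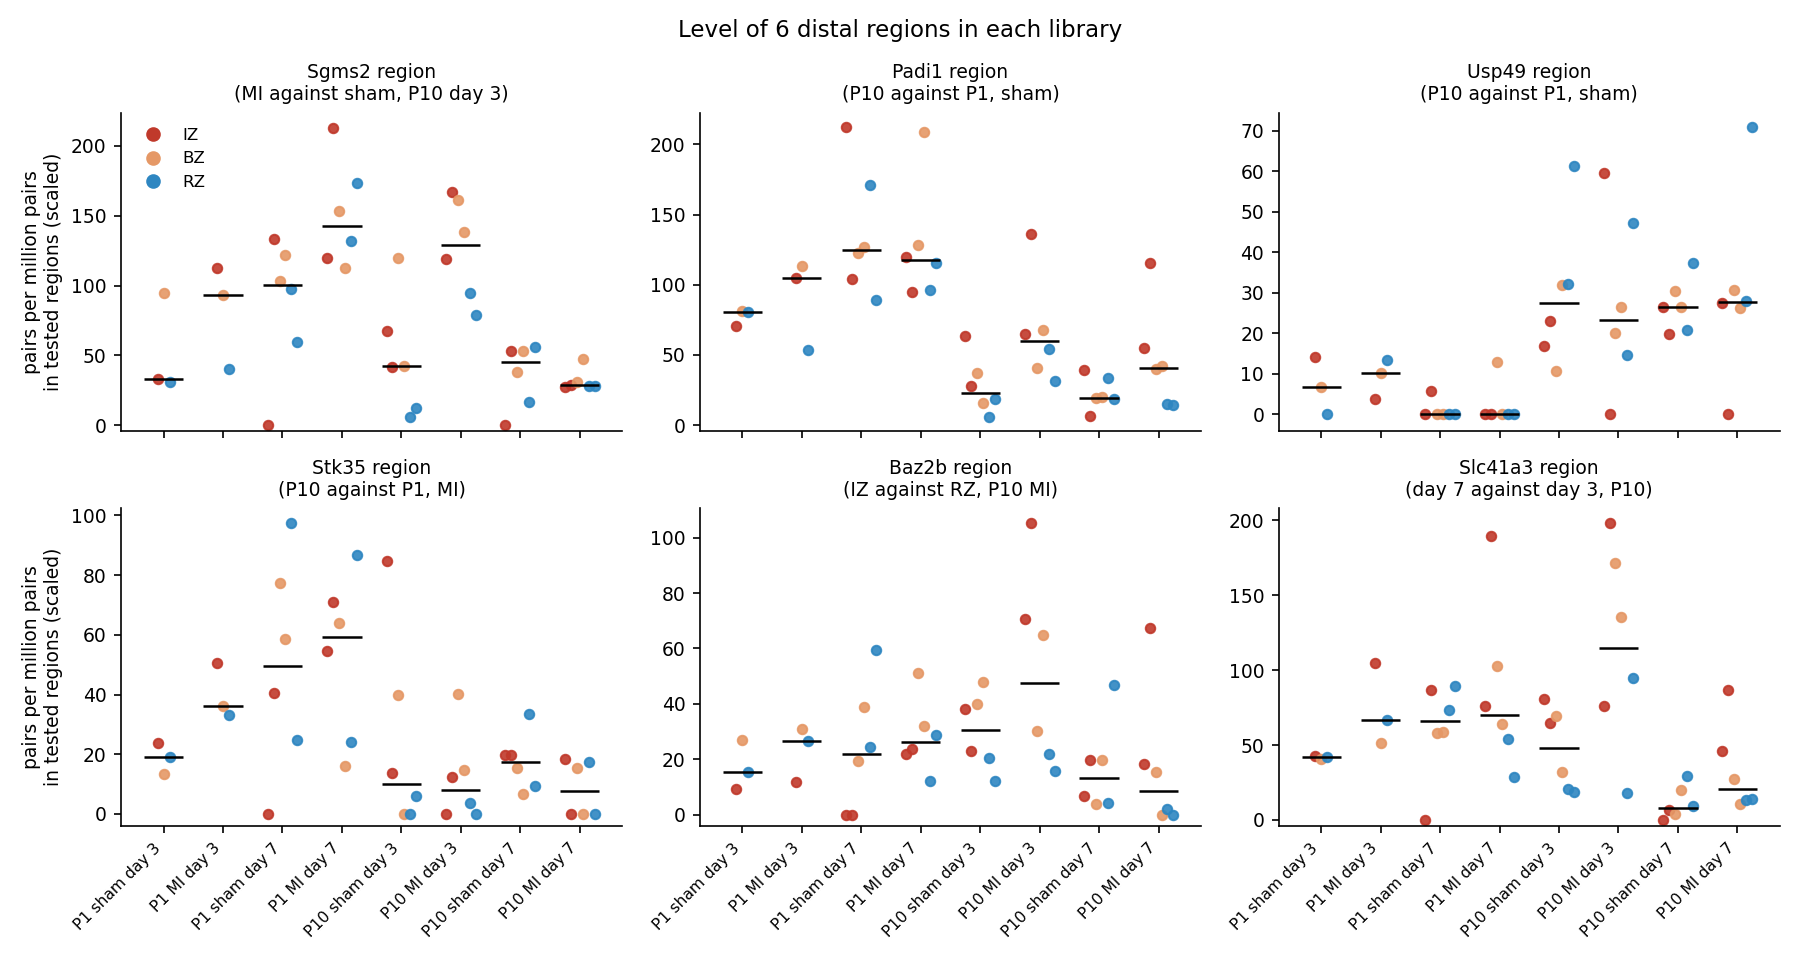
Scaled level (CPM of pairs in tested regions) of 6 distal regions in each of 42 libraries, by arm and coloured by zone, with bars at arm medians. The Padi1 panel shows every P1 sham library above every P10 sham library (70.8 or more against 63.5 or less), and the Slc41a3 panel shows P10 day 3 libraries at 18.2 to 198 and P10 day 7 libraries at 0 to 86.4.

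Day and sequencing run were linked in these libraries. The P10 day 7 libraries numbered 1 shared 0 flow cells with the P10 day 3 libraries, while those numbered 2 shared 5 with the day 3 libraries numbered 2. Among P10 libraries numbered 2 alone, 0 distal regions were called by limma and 370 had an unadjusted p under 0.05, with 6 libraries per arm. There the log2 difference of the Slc41a3 region was -1.50 and that of the Sec14l1 region 1.09, neither past the threshold. In 36 of the 106 the lower arm had a mean under 3 pairs. Leaving out 1 library gave 47 calls without P10 sham day 7 RZ replicate 1, 48 without P10 sham day 7 IZ replicate 1, 50 without P10 MI day 3 RZ replicate 2, 54 without P10 MI day 3 IZ replicate 3 and 55 without P10 sham day 7 BZ replicate 1. It gave 56 and 58 without replicate 2 of the P10 sham day 3 BZ and IZ, 63 and 69 without replicate 1 of the P10 MI day 7 RZ and IZ, and 171 without P10 MI day 3 IZ replicate 2.

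Between the infarct and remote zones of P10 MI hearts 4 distal regions were called, 3 higher and 1 lower in the IZ, which is 0.0898% of those tested beside 0.0480% of all regions (0.0400% higher and 0.00801% lower). At an unadjusted p under 0.05 there were 483, beside 8.94% of all regions. The region in Baz2b, a bromodomain gene, had 70.5 and 105 in the IZ at day 3 and 18.4 and 67.2 at day 7, and in the RZ 21.8 and 15.7 at day 3 and 2.16 and 0 at day 7. Only 1 IZ library fell to the level of the RZ, and the log2 difference was 2.73 ± 0.593 (SE, limma adjusted p = 0.0428). A region 186 kb upstream of Id2 had 37.9, 44.7 and 48.0 (lowest, median, highest of 4) in the IZ and 0, 6.53 and 31.5 in the RZ, without overlap (2.59). The Slc41a3 region was higher in the IZ by 2.08 on the log2 scale with overlap, and the region named for Ston1, in an intron of Ppp1r21, was lower (-2.60) without overlap. The adjusted p of the 4 lay between 0.0428 and 0.0466. The count was 0 with limma-trend or a mean of at least 1 pair and 1 with the replicate number as a block. With all counted pairs 1 was higher and 2 were lower, and with factors from single regions 2 were higher and 2 lower. The count was 0 without P10 MI day 3 IZ replicate 3, day 3 RZ replicate 3, day 7 IZ replicate 2 or either replicate of the day 7 RZ, 1 without day 3 RZ replicate 2 and 40 without day 3 IZ replicate 2. In 3 of the 4 the lower arm had a mean under 3 pairs.

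Most regions of lineage and response genes were not called, and those called are named after their values were seen. The 25 regions nearest to macrophage identity genes had 6 tested members and 1 call, in day 7 against day 3, where 2.91% of all regions were called. It lay 17.0 kb upstream of Ptprc and was lower at P10 day 7 than at day 3, with 0, 13.6 and 93.4 against 25.4, 42.8 and 69.3 (log2 difference -1.60, limma adjusted p = 0.00122). Among P10 libraries numbered 2 alone the log2 difference was -0.79, not past the threshold. The Adgre1 region, which was not tested, lay 5.94 kb upstream at a level of 2.92 per kb. The Itgam region 11.4 kb upstream was tested and had the highest level of the list at 6.19.

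The 204 regions of myeloid transcription factors were nearest to 16 of the 18 genes and had 57 tested members, with a median log2 difference of -0.04 between ages in sham beside -0.06 over all regions. In that comparison 3 of the 57 were lower at P10, beside 2.02% of all regions. They were 2 regions of Id2, 155 and 204 kb upstream (-1.47 and -1.15), and 1 in Runx1 (-1.40). A Maf region 399 kb away was lower at P10 in MI (-1.36), as were 0.745% of all regions. Leaving out 1 library ended the call of the Id2 region at 204 kb in 10 fits, of Runx1 in 8 and of Maf in 11. None of these was kept with all counted pairs, limma-trend or among day 7 libraries numbered 1. The Id2 region 155 kb upstream was also lower at day 7 than at day 3 (-1.38), as were 1.09% of all regions. Both of its calls were kept with limma-trend and lost with all counted pairs. They were also lost among day 7 libraries numbered 1 (age) and P10 libraries numbered 2 (day). The Id2 region 186 kb upstream, given above, was higher in the IZ, as were 0.0400% of all regions. The AP-1 and stress list had 44 regions and 19 tested members. Of these, 2 were called in day 7 against day 3 (2.91% of all regions). A Jun region 161 kb upstream was lower (-0.86) and a Fos region 47.6 kb away higher (0.67) at P10 day 7. With P10 libraries numbered 2 alone these were -0.34 and 0.18, neither past the threshold. Leaving out 1 library ended the Jun call in 10 fits and the Fos call in 16. Neither call was kept with all counted pairs or with limma-trend. The Fos region had 77.9, 133 and 173 against 53.3, 72.8 and 111.

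Regions of resident macrophage genes had a higher summed level at P10 in day 7 sham libraries. Their 34 members, nearest to 7 of 11 genes, had a summed level of 98.0, 132 and 225 CPM of all counted pairs in P1 sham day 7 libraries and 246, 350 and 383 in P10 sham day 7 libraries, which did not overlap. At day 3 the sham values were 152, 153 and 173 at P1 and 155, 262 and 307 at P10, which did. In MI libraries the ages overlapped at both days. The day 7 values were 95.1, 120 and 331 at P1 and 144, 268 and 341 at P10. Those of day 3 were 133, 148 and 162 at P1 and 104, 217 and 320 at P10. Regions of all classes held 31.8% to 56.8% of the pairs in P1 sham day 7 libraries and 38.8% to 58.9% in P10 sham day 7 libraries, and the part of this share in the sums was not tested. Of the 11 tested members 1 was called between ages in sham, where 0.520% of all regions were called higher: the region 16.6 kb upstream of Mgl2, a lectin gene, had 14.7, 29.3 and 58.7 at P10 and 0, 5.79 and 9.76 at P1 (log2 difference 1.74, limma adjusted p = 0.0150). Leaving out 1 library ended this call in 1 fit. It was not kept with all counted pairs, with limma-trend or among day 7 libraries numbered 1, where the log2 difference was 1.98. The list's median in this comparison was 0.65, beside -0.06 over all regions. The Mgl2 region and a region 14.3 kb upstream of Lyve1, the hyaluronan receptor gene, were also higher at P10 day 7 than at day 3 (1.18 and 0.93), as were 1.82% of all regions. Leaving out 1 library ended these calls in 16 and 18 fits, and neither was kept with all counted pairs or limma-trend.

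The remaining lists gave few calls. The 39 regions of inflammatory cytokine and chemokine genes had 15 tested members and 1 call, a region 66.5 kb from Ptgs2, which encodes cyclooxygenase 2, lower at P10 day 7 (-1.34), as were 1.09% of all regions. The 46 regions of wound repair genes had 8 tested members and 1 call in each of 3 comparisons, in which 0.280%, 2.54% and 2.91% of all regions were called. The Mmp14 region was higher in MI at P10 day 3, as given above, and lower at P10 than at P1 in sham (-1.48), and a region 77.6 kb upstream of Fn1, the fibronectin gene, was lower at P10 day 7 (-1.42). With P10 libraries numbered 2 alone the Fn1 difference was -0.72 and that of Ptgs2 -1.05, neither past the threshold. The calls of Ptgs2, Mmp14 and Fn1 were not kept with all counted pairs or limma-trend. Among day 7 libraries numbered 1 the Mmp14 difference between ages was -0.10. Regions of the Arg1 and lipid-associated list (22, 6 tested), the S100a9 list (6, 2 tested), the Ly6c-low list (8, 1 tested), the MHC class II list (9, 1 tested) and the endothelial list (15, 3 tested) had 0 calls by limma in the 10 comparisons. At an unadjusted p under 0.05 they gave 4, 0, 1, 2 and 4 results over the 10 comparisons together, where 1.24% to 16.7% of all regions passed in a comparison. The fibroblast list had 1 untested region, 166 kb upstream of Dcn, and the cardiomyocyte and lymphocyte lists had none.

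Position and length of the called members were set beside those of all tested members. Tested members had a median length of 3500 bp, a median distance of 29.2 kb and 56.4% intronic. The 122 regions lower at P10 in sham had 4500 bp, 25.5 kb and 48.4%, and the 28 higher 4250 bp, 26.1 kb and 57.1%. Each called set was spread over genes: the 122 were nearest to 114 genes, with at most 2 regions at any gene. Motif shares in the called sets rest on few regions. A kappa B match was present in 26 of the 122 (21.3%) beside 12.6% of tested members, a MARE half-site in 9 of the 36 higher at P10 day 7 (25.0% beside 11.7%), and a C/EBP match in 20 of the 70 lower there (28.6% beside 19.9%). These shares are descriptions, picked after 12 motifs had been counted in 7 called sets.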

How the data were processed

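H3K27ac CoBATCH libraries of MPCs were analysed from 42 lists of aligned reads, each giving position, read name, mapping quality and strand. The authors demultiplexed cells, trimmed reads with Cutadapt, aligned with Bowtie2 against mm10, discarded poorly mapped reads and, with Picard, duplicates, and kept cells by read number. The deposited mapping quality score ran from 21 to 44, and no measurement was made from it. Another 6 samples were not analysed here. Repeated lines were dropped (18 libraries, up to 32.2%), which left 18007584 unique pairs of 38097100 reads, and each was counted at its midpoint. In the libraries with repeated lines up to 29.6% of names had a single mate.

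Groups were taken from the sample titles. Gene starts were those of GENCODE vM21 protein-coding genes (21938) on GRCm38, and nearest genes, exons and repeat-masked bases were read from the same build. Levels per kb are pairs per 1e6 counted pairs. Differences were fitted with limma 3.58.1 (voom with a prior of 0.5 pairs, pool as a random effect through statmod 1.5.0, R 4.3.3) with a coefficient per group, over all libraries, on regions with a mean of 3 or more pairs, and adjusted by Benjamini-Hochberg at 0.05. Scaling factors (TMM) were computed on tested regions summed in blocks of 2 Mb. The blocks were chosen after the data were seen, because factors from single regions spread widely in shallow libraries (0.925 to 1.61, against 0.955 to 1.07 in blocks). Shares were compared over pools by exact two-sided permutation of log2 ratios, adjusted over 4 tests. The fit was also run on simulated data, and the outcome is not given here. Other software was Python 3.11.15, numpy 2.4.6, pandas 2.3.3 and matplotlib 3.10.9.

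Named are the 12 regions of highest level (1 per nearest gene), the 10 genes with most members, for each comparison up to 4 called regions per direction of smallest adjusted p (1 per nearest gene, the same sign in all strata averaged), all under 50% repeat-masked where a level or a p chose them, and for each list gene its highest member. Called list members were added after their values were seen. Members and lists were chosen with earlier results of these data known. The paper calls its replicates biological. Nothing says that the libraries of a group came from separate litters, so p-values measure the spread between these libraries, which may be technical. Alternatives were another scaling, another minimum, limma-trend, the replicate number as a block, a threshold of 6 times the mean, transcript starts in place of gene starts, pairs with both mates only, leaving out shallow libraries or 1 library at a time, and subsets by library number.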

Additional observations from a re-analysis of the deposited data

Results flagged for a closer look

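In 4 of the 52 groups of 4 to 10 libraries examined at the named regions, the highest library stood apart from the rest by Dixon's criterion, which chance gives in about 1 of 20 groups. The Usp49 region had a scaled level of 14.2 in its highest P1 sham library, with the next at 6.75 (9 libraries). The Itsn1 region had 64.3 in its highest P1 MI library, with the next at 29.0 (9 libraries). The Tmem51 region had 295 in its highest P1 MI library, with the next at 175 (9 libraries). The Slc41a3 region had 94.5 in its highest P10 MI RZ library, with the next at 18.2 (4 libraries). What set these libraries apart was not tested.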

How the results depend on the processing

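Counts of called distal regions changed with the processing, and none of the 32 named differences reversed in the alternatives in which they were followed. These were all but regions at 6 times the mean, pairs of both mates, transcript starts and the crossed numbers. With libraries scaled to all counted pairs, MI against sham at P10 day 3 gave 0 calls (in place of 10), age in sham 7 (150), age in MI 4 (47) and day 7 against day 3 gave 7 (106). With limma-trend these were 0, 21, 1 and 7, and IZ against RZ gave 0 (in place of 4). With a mean of at least 1 pair, MI at P10 day 3 gave 5, age in MI 29 and IZ against RZ 0. With regions at 6 times the mean, MI at P10 day 3 gave 6, age in sham 80, age in MI 20 and IZ against RZ 1. With pairs of both mates only, MI at P10 day 3 gave 16 and IZ against RZ 7. Without the 6 libraries under 150000 pairs, MI at P10 day 3 gave 25, MI at P1 day 7 gave 1, age in MI 80 and IZ against RZ 1. Among P10 libraries numbered 2 day 7 against day 3 gave 0, and among day 7 libraries numbered 1 age in sham gave 33. The last 2 use fewer libraries, and for the others the cause was not tested. Leaving out 1 library at a time gave 0 to 69 for MI at P10 day 3, 80 to 186 for age in sham, 16 to 89 for age in MI, 0 to 40 for IZ against RZ and 47 to 171 for day 7 against day 3. P1 day 3 libraries could not be left out of comparisons that use them, since each was alone in its group.

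With the replicate number as a block, MI at P10 day 3 gave 47 calls, age in sham 376, age in MI 130, IZ against RZ 1 and day 7 against day 3 gave 215. Deviations of same-numbered libraries correlated between -0.115 and 0.0864, so the numbers were not taken to pair libraries. With the numbers crossed in the P10 day 3 IZ the block gave 45 for MI at P10 day 3, an alternative chosen after seeing the data, as were single-region factors, the subsets by number and leaving out shallow libraries. In the share tests no alternative run changed a call. Of the 32 named calls 16 were past the threshold with all counted pairs, 11 with limma-trend, 27 with a mean of at least 1 pair, 29 with the block, 29 without shallow libraries and 31 with single-region factors. Of those that could be fitted, 3 of 30 were past it when P10 libraries not numbered 2 were left out and 6 of 16 among day 7 libraries numbered 1. Depth limits the tests, since 10323 members were not tested.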
